A study of Mus musculus with 33 samples.

Results

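The 15 kb that open the Jα array of the mouse *Tcra–Tcrd* locus were described as partners in three-way chromatin contacts. In GRCm38 (mm10) this stretch runs from 54150001 to 54165000 on chromosome 14. It was read as 3 bins of 5 kb, and its members were the pairs of bins with at least 1 fragment in these bins and the other anywhere between 53740001 and 54300000, which is 333 of the 6328 pairs of bins in that region. The bins were set by position, with earlier results of these data known. The first bin, from 54150001 to 54155000, holds TEAp, the T early α promoter, and no Jα segment. The second, from 54155001 to 54160000, holds *Traj61*, *Traj60*, *Traj59*, *Traj58*, *Traj57* and *Traj56*, and the third, from 54160001 to 54165000, holds *Traj55*, *Traj54* and *Traj53*. By these gene positions the bins are called the TEAp bin, the *Traj61–56* bin and the *Traj55–53* bin here, and together the proximal Jα bins. Reads were binned by the end of their restriction fragment. The fragment of *Traj56* (54159189 to 54160394) ends in the third bin, so its reads are counted there.

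The assay was 3C-HTGTS, in which chromatin is cross-linked, cut with the restriction enzyme MboI and religated, and reads are primed from a chosen bait fragment. Each read counted held the bait and the 2 fragments ligated after it, so that a pair of bins is a contact of 3 fragments. These are 3 separate places only where the 2 fragments lie in different bins and away from the bait. There were 33 libraries from 6 baits. Double-positive (DP) thymocytes with the WT locus (genotype CBE+/+Rag1-/-) gave 3 libraries from each of the Eα, TEAp, INT2, *Trdd2* and *Trav17* baits and 1 from a second Eα bait. DP thymocytes without EACBE (CBE-/-Rag1-/-), called EACBE-/- here, gave 3 from each of the Eα, TEAp and *Trav17* baits, and liver (CBE+/+Rag1-/-) gave 2 from each of the Eα, TEAp, INT2 and *Trav17* baits. All mice were C57BL/6 and lacked *Rag1*, so the locus was unrearranged in every group. Per the study's methods the DP cells arose after an anti-CD3 injection at 3 weeks of age, with thymi taken 10 days later, and stand in for DP cells that form through a rearranged receptor. The labels do not say whether libraries of a group came from separate animals, so p-values measure the spread between libraries, which may be technical. Contact counts hold no cell type marker, and the labelled cell types were not checked against one. In bulk libraries, a contact in fewer cells and a weaker contact in each cell cannot be told apart.

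The first rearrangements of *Tcra* in DP thymocytes join proximal Vα to proximal Jα segments. TEAp is the germline promoter that opens the first Jα segments to the recombinase, and Eα, the enhancer past *Trac*, activates TEAp. CTCF, the DNA-binding factor that anchors cohesin loops, is known to bind at TEAp, at INT1 and INT2 between the V and *Tcrd* gene segments, and at EACBE, just downstream of Eα. *Tcrd*, whose D, J and C segments lie between the INTs and TEAp, is cut out when *Tcra* rearranges.

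The 4 segments named in the design are shown with the recombination signal in front of each, because they are recombination substrates that lie in these bins. Sequence was read from mm10 on the plus strand, with the 9-base nonamer and 7-base heptamer windows of the signal in capitals and the spacer between them and the coding segment in lower case.
Traj61: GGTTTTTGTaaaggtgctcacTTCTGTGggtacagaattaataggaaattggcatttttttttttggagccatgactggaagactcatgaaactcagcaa
Traj58: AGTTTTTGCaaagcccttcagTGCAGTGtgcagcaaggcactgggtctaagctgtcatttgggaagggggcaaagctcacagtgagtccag
Traj57: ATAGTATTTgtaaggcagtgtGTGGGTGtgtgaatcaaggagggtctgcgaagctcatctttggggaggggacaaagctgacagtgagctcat
Traj56: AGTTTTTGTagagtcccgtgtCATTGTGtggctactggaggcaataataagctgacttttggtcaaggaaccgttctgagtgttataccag

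*Traj61* spans chr14:54155005-54155076, *Traj58* chr14:54157280-54157342, *Traj57* chr14:54158505-54158569 and *Traj56* chr14:54159263-54159325. *Traj61* begins just inside the second bin, so its signal runs across the boundary with the TEAp bin. The nonamer window of *Traj61* held 9 of 9 letters of GGTTTTTGT, against 8 for *Traj56*, 7 for *Traj58* and 3 for *Traj57*. The heptamer windows held 6 of 7 letters of CACTGTG in *Traj56*, 5 in *Traj61*, 4 in *Traj58* and 3 in *Traj57*. These letters describe the windows at a fixed offset from the annotated segment and do not show which segments recombine.

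AGGGGGC, a core of the CTCF motif, was searched on both strands, and 3 matches are shown with their flanks because they lie in fragments or bins that the contacts below turn on. The core is in capitals and each is written on the strand where it reads AGGGGGC.
TEAp bait fragment, chr14:54153022-54153052, minus strand: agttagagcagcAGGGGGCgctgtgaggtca
bin before the INT2 bait bin, chr14:54064706-54064736, plus strand: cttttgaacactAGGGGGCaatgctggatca
Eα bait bin, chr14:54228295-54228325, plus strand: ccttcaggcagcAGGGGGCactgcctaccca

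The match in the TEAp bait fragment reads on the minus strand and the others shown read on the plus strand. Matches not shown include those of the INT2 bait bin, on both strands (from 54065081, plus, and from 54068772, minus). The TEAp bin has another on the minus strand (from 54150350). The remaining proximal Jα bins have matches on the plus strand (from 54157316 and 54164258). Of 1138 windows of 492 bases, the length of the TEAp bait fragment, 55 (4.83%) held the core, as did 42 of the 112 bins of the region (37.5%) and all 3 proximal Jα bins. A match is a description of letters, not a measured site.

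In DP WT thymocytes the proximal Jα bins were reached in a larger share of reads from Eα than from INT2 or *Trav17*. The share is the percentage of reads with both fragments in the region (region reads) that hold at least 1 proximal Jα fragment, called proximal Jα reads below. From the Eα bait (54225987 to 54227254) it was 8.51%, 9.73% and 9.53%, a mean of 9.26% ± 0.66 (SD, n = 3). The second Eα bait, the fragment that follows (54227255 to 54227584), gave 12.2% in its single library. From the *Trdd2* bait (54121509 to 54122224) the mean was 7.17% ± 0.38 (SD, n = 3), from INT2 (54065620 to 54066119) 4.80% ± 0.24 and from *Trav17* (53804241 to 53805068) 3.33% ± 0.61. The TEAp bait fragment (54152642 to 54153133) lies inside the first bin. Its 8.84% ± 0.25 thus includes ligation to sequence close by on the fibre and is not set against the other baits. The fragments directly beside it are absent from these reads. Region reads numbered 15802 to 256778 per library in DP WT, 9280 to 56636 in EACBE-/- and 406 to 29910 in liver. In the 22 libraries with aligned fragments per read, each distinct pair of proximal Jα fragments was read 1.58 to 10.7 times. The highest was *Trav17* WT replicate 3, and INT2 and liver libraries have no such estimate. Reads are thus not independent molecules, and intervals and floors cover counting error only.

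**Figure D1:**
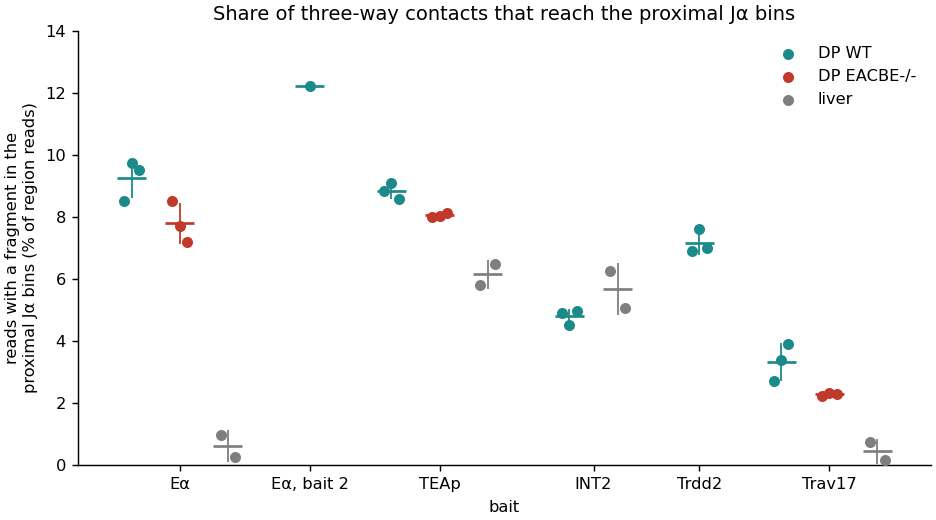
Share of region reads with at least 1 fragment in the proximal Jα bins (y axis, %) for each bait (x axis); points are libraries, horizontal bars the mean and vertical bars the SD. EACBE-/- libraries lie below WT for all 3 baits, and liver lies near 0 for Eα and *Trav17* and at 5.82% and 6.48% for TEAp.

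The share was lower in all 3 EACBE-/- groups and in 3 of 4 liver groups. From Eα, EACBE-/- libraries gave 8.50%, 7.71% and 7.18% (mean 7.80%, 1.46 percentage points under WT, a difference of -1.46). From TEAp they gave 8.0%, 8.02% and 8.14% (difference -0.78), and from *Trav17* 2.21%, 2.32% and 2.3% (difference -1.05). None of the 3 baits overlapped WT. The Eα libraries overlapped, and their difference was -0.51 points, when pairs with both fragments in 1 bin were left out (10.7%, 12.6% and 11.7% in WT, 13.2%, 10.4% and 9.79% in EACBE-/-). With all pairs on chromosome 14 as the denominator the Eα difference was -0.48, again with overlap. Exact two-sided permutation tests over libraries gave p = 0.1 for each, which is the smallest p that 3 against 3 allows and stays at 0.1 after adjustment over the 3 baits, so this design could not pass 0.05. Liver gave 7 of 728 and 1 of 406 region reads from Eα, or 0.962% (exact 95% interval 0.387% to 1.97%) and 0.246% (0.00624% to 1.37%), and 9 of 1247 and 1 of 675 from *Trav17*. From TEAp, liver gave 5.82% and 6.48%, 2.69 points under DP. From INT2, liver was the higher, at 6.27% and 5.08% (DP minus liver -0.87). DP and liver did not overlap for any of the 4 baits, again with an exact permutation p = 0.1, the smallest that 3 against 2 allows. The TEAp difference turned to -1.9 points when single-bin pairs were left out, and that of INT2 went to -2.61. Such pairs made up 57.4% of region reads in the liver TEAp libraries and 22.9% in DP.

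The partners of the proximal Jα bins were summarised in 9 classes of bins, from the V genes upstream of *Trav17* to the flank past Eα, as a percentage of proximal Jα reads. The classes differ in size, with 50 bins in proximal V, 16 in *Tcrd*, 14 in the downstream flank, 13 in upstream V and 8 in distal Jα. The INTs, the proximal Jα bins and the next Jα bins have 3 each, and *Trac* with Eα has 2. Shares are per class and not per bin, so a large class can lead by its size. In DP WT the Eα bait shared them most with the next Jα bins (*Traj52* to *Traj39*, 24.5% ± 0.66, SD, n = 3), then with proximal V (*Trav17* to *Trdv3*, 15.5% ± 3.0), distal Jα (12.8% ± 1.7), the *Tcrd* D-J-C interval (12.6% ± 0.43) and the INTs (10.1% ± 2.7). From the TEAp bait the *Tcrd* interval (20.7% ± 1.2), the INTs (20.1% ± 1.5) and proximal V (17.9% ± 1.7) led, and these lie within about 1 to 2 SD of each other. From *Trav17*, V genes upstream of it (22% ± 0.92) and proximal V (20.6% ± 2.0) led, and that bait lies at the border of these classes. From *Trdd2*, *Tcrd* itself took 35.1% ± 1.6 and the INTs 18.3% ± 1.5. From INT2, 83.6% ± 0.94 of proximal Jα reads had their other fragment in the INT bins that hold the bait, and proximal V held 3.90% ± 0.92. Across the 5 baits other than INT2, the INTs held 10.1% to 20.1% and proximal V 12.6% to 20.6%.

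The TEAp bin and the Jα-bearing bins had different partners. With reads of the TEAp bin alone from the Eα bait, the INTs held 17.7% ± 4.5 and the next Jα bins 11.4% ± 3.4. With the other 2 bins alone, the INTs held 8.66% ± 3.8 and the next Jα bins 26.1% ± 1.0. From *Trdd2*, proximal V held 19.8% ± 3.8 of TEAp bin reads and 10.0% ± 0.46 of the others, while the next Jα bins held 4.81% ± 1.6 and 18.0% ± 2.0. The TEAp bin lies farther from the next Jα bins than the other bins do, and no test was run on these shares. Reads with both fragments in the TEAp bin were absent or nearly so, with 0 from the TEAp bait and 1 from Eα over 3 WT libraries each. From the TEAp bait this count was limited in advance. The study's methods removed self-ligated fragments and adjoining fragments of a read. The bait fragment and those beside it had 0 reads from that bait. The TEAp bin met the *Traj61–56* bin in 0.82% ± 0.13 of proximal Jα reads from Eα, whereas the *Traj61–56* bin met the *Traj55–53* bin in 5.30% ± 0.99 and itself in 3.02% ± 1.3.

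Outside 15 kb on either side of the proximal Jα bins and of the bait, 1 bin led for 5 of the 6 baits. It runs from 54060001 to 54065000, holds no gene segment and lies beside the INT2 bait bin, with its centre at -90.4 kb from that of the TEAp bait fragment. It held 6.61% ± 2.4 of proximal Jα reads from Eα (176, 155 and 98 reads), 11.6% ± 0.82 from TEAp (718, 568 and 704), 9.54% ± 1.2 from *Trdd2* (336, 416 and 243), 4.92% ± 1.1 from *Trav17* (17, 26 and 173) and 10.3% from the second Eα bait. It is the bin with the second match of the core shown above. The bin from 54125001 to 54130000 (centre at -25.4 kb), which lies between *Trdj1* and the rest of *Tcrd*, was among the leading 3 for Eα (3.19% ± 1.6), TEAp (5.43% ± 0.44), *Trav17* (3.02% ± 0.78), the second Eα bait (4.45%) and INT2 (1.38% ± 0.73). For INT2 the third was the Eα bin, from 54225001 to 54230000, at 0.424% ± 0.10.

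**Figure D2:**
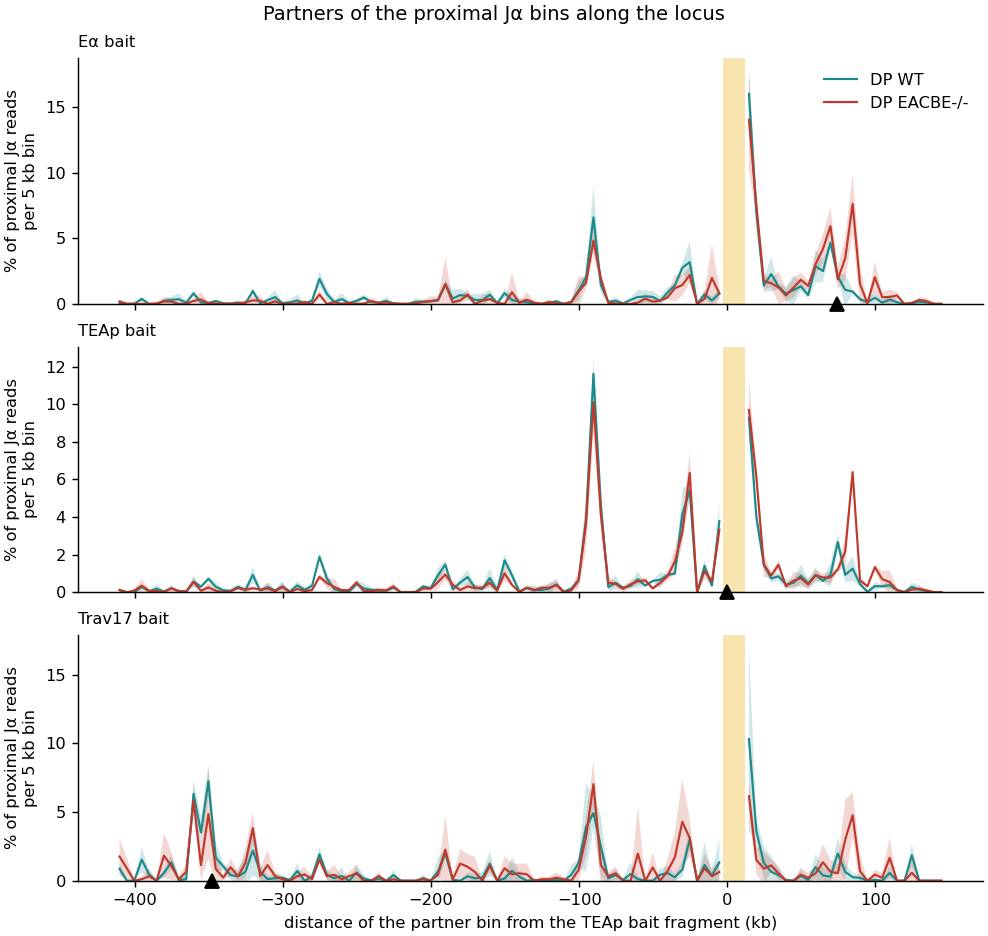
Percentage of proximal Jα reads (y axis) whose other fragment fell in each 5 kb bin. The x axis is the distance from the TEAp bait fragment (kb), and panels are the Eα, TEAp and *Trav17* baits. Lines are means of 3 libraries and shading is the mean ± SD. The yellow band is the proximal Jα bins and triangles mark baits. Outside 15 kb on either side of the proximal Jα bins and of the bait, the highest WT bin is an INT bin in all 3 panels. From Eα the next Jα bins, beside the band, held more than the INTs. The EACBE-/- lines have another peak past Eα, at the *Dad1* bin, where WT stays low.

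Within the 15 kb the reads fell on 22 MboI fragments, and the shortest ones held far more than their length. A fragment of 55 bases between the fragments of *Traj57* and *Traj56* was in 11.9% ± 0.66 of proximal Jα reads from TEAp, 14.4% ± 0.73 from Eα and 12.5% ± 1.9 from *Trdd2* in DP WT. The 4 fragments under 150 bases make up 332 bases, 2.22% of the sequence, and held 39.7% ± 3.4 of the fragment hits from Eα, 29.1% ± 1.4 from TEAp and 33.6% ± 1.6 from *Trdd2*. Of the fragments that carry the named segments, those of *Traj61* (8.27% ± 1.7) and *Traj58* (7.12% ± 1.2) were within 1 SD of each other from the TEAp bait, and their order turned with copies counted once (7.71% and 8.74%). *Traj57* held 5.09% ± 0.51 and *Traj56* 4.13% ± 1.0. From Eα the *Traj57* (5.03% ± 1.7), *Traj61* (4.48% ± 0.54), *Traj56* (4.38% ± 1.4) and *Traj58* (4.32% ± 0.24) fragments lay within 1 SD of each other. The TEAp bait fragment itself was in 2.27% ± 0.76 of proximal Jα reads from Eα, 3.71% ± 1.9 from *Trav17* and 5.80% ± 0.36 from *Trdd2*. From its own bait, that fragment and its neighbours on both sides had 0 reads.

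**Figure D3:**
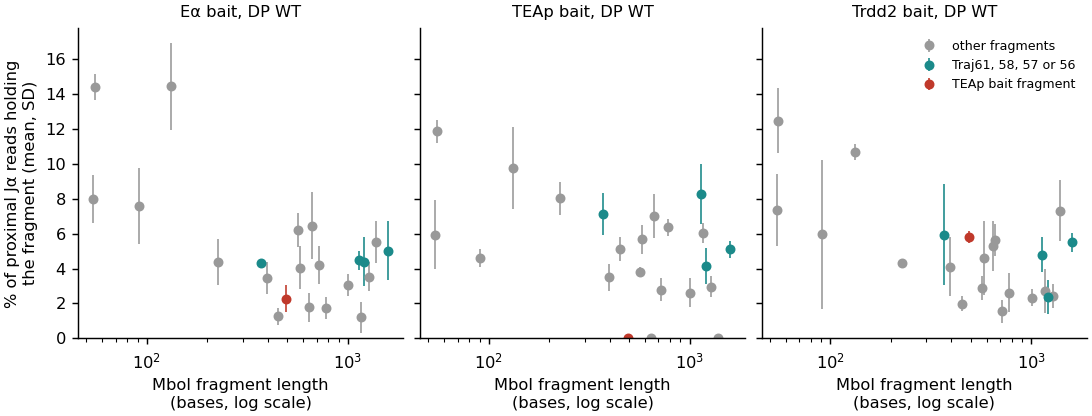
Percentage of proximal Jα reads that hold each MboI fragment of the 15 kb (y axis, mean and SD of 3 DP WT libraries) against its length (x axis, bases, log scale) for the Eα, TEAp and *Trdd2* baits. The fragments of 55 and 132 bases are the highest in each panel, and the TEAp bait fragment is at 0 from its own bait. Reads are shown with copies. With copies counted once, a fragment of 226 bases (10.7%) and that of *Traj58* (8.74%) led from TEAp. There the fragments of 55 and 132 bases held 8.37% and 7.41%.

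Without EACBE, the proximal Jα bins met the *Dad1* bin more often and proximal V less often. EACBE lies between Eα and *Dad1*, a housekeeping gene downstream, and the bin from 54235001 to 54240000 holds the 3′ end of *Dad1*. From Eα this bin was in 1.12%, 0.785% and 0.902% of proximal Jα reads in WT and in 5.20%, 9.71% and 8.0% in EACBE-/-. From TEAp it was in 1.97%, 0.737% and 1.06% in WT and in 6.18%, 6.45% and 6.56% in EACBE-/-. From *Trav17* it was in 1, 3 and 0 reads in WT and in 16, 9 and 18 in EACBE-/-. In each bait every EACBE-/- library lay above every WT library. The *Dad1* bin starts 7.75 kb past the Eα bait fragment, within the 15 kb left out around baits for the named bins. Its reads from the Eα bait may thus include ligation to sequence close by on the fibre.

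Of the member bin pairs tested, few passed an adjusted p under 0.05 (edgeR's quasi-likelihood test, Benjamini-Hochberg adjusted over all bin pairs), and all that did were with the *Dad1* bin. From Eα 2 of 148 were called, against 0.595% of all 1849 bin pairs tested. The TEAp bin with *Dad1* counted 10, 18 and 22 reads in EACBE-/- and 4, 1 and 0 in WT (log2 fold change 4.5 ± 1.2, SE; adjusted p = 0.034). The *Traj61–56* bin with *Dad1* counted 21, 31 and 40 against 12, 10 and 3 (2.94 ± 0.74, adjusted p = 0.024). From TEAp 3 of 235 were called, against 1.14% of all 3521, and these were the *Dad1* bin with each of the 3 proximal Jα bins. The *Traj61–56* bin counted 148, 130 and 103 reads with *Dad1* in EACBE-/- and 69, 12 and 37 in WT (2.25 ± 0.38, adjusted p = 1.7e-06). The TEAp bin (56, 63 and 21 against 2, 10 and 15) rose by 2.78 ± 0.67 and the *Traj55–53* bin (76, 71 and 47 against 45, 13 and 18) by 1.85 ± 0.50. From *Trav17* 0 of 111 passed, against 0.0431% of all 2318, with 7 of the 111 at an unadjusted p under 0.05 and 1 called by DESeq2. These shares of called members lie near the share over all bin pairs. Without WT replicate 1 or 3 or EACBE-/- replicate 3, 0 were called from Eα, and without EACBE-/- replicate 1 or 2, 1 was called from TEAp, the *Traj61–56* bin with *Dad1*.

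Single bin pairs hold few reads, so counts were also summed over pairs of the 9 classes and fitted in the same way. From Eα 5 of the 9 pairs with the proximal Jα bins passed, against 55.6% of all 45 class pairs. From TEAp it was 4 of 9, against 57.8%, and from *Trav17* 2 of 9, against 26.7%. The numbers called were thus close to the background, and their directions are given one by one. The pair with proximal V fell from 1.43% ± 0.29 to 0.702% ± 0.099 of region reads from Eα (log2 fold change -1.03 ± 0.28, adjusted p = 8.6e-04) and from 1.58% ± 0.14 to 0.963% ± 0.15 from TEAp (-0.71 ± 0.13, adjusted p = 7.5e-07). From *Trav17* it was 0.682% ± 0.12 and 0.561% ± 0.084, with overlapping libraries and an adjusted p = 0.41. The pair with the downstream flank, which holds *Dad1* and *Abhd4*, rose from 0.353% ± 0.094 to 1.33% ± 0.21 from Eα (1.92 ± 0.29) and from 0.380% ± 0.086 to 1.02% ± 0.12 from TEAp (1.42 ± 0.17). From *Trav17* it went from 0.113% ± 0.041 to 0.257% ± 0.097 and did not pass (1.21 ± 0.50, adjusted p = 0.097). The flank rose with 8 of the 9 classes from Eα and from TEAp, and proximal V fell with 7 and 6 of the 9, so both changes were shared with most other classes.

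From TEAp the pair with *Trac* and Eα fell as well, from 0.317% ± 0.078 to 0.161% ± 0.025 (-0.97 ± 0.30, adjusted p = 0.0029). In single libraries the Eα bin had 142, 150 and 160 proximal Jα reads in WT and 59, 52 and 28 in EACBE-/-. EACBE lies just downstream of Eα, and the coordinates of its deletion were not available here. Any fragments that the deletion removes were thus not masked, and missing sequence cannot be told apart from lost contact in this class. The pair with the INTs fell by 0.30 on the log2 scale from TEAp (adjusted p = 0.024), and from Eα its -0.52 ± 0.29 did not pass (adjusted p = 0.13). From Eα the proximal Jα bins also fell with V genes upstream of *Trav17* (-1.25 ± 0.54, adjusted p = 0.040), with *Tcrd* (-0.66 ± 0.28) and with themselves (-0.66 ± 0.28, adjusted p = 0.038 for both). From *Trav17* they fell with themselves (-1.98 ± 0.57, adjusted p = 0.029) and with the next Jα bins (-1.31 ± 0.43, adjusted p = 0.043), of which 0 passed without WT replicate 2 or EACBE-/- replicate 1 or 3. Under the other settings tried, the calls with proximal V, with the flank and, from TEAp, with *Trac* and Eα passed each time they could be fitted, while the remaining calls passed in 2 to 7 of 12 settings. WT and EACBE-/- libraries of a bait shared no flow cell by their read names, so flow cell and genotype cannot be told apart.

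**Figure D4:**
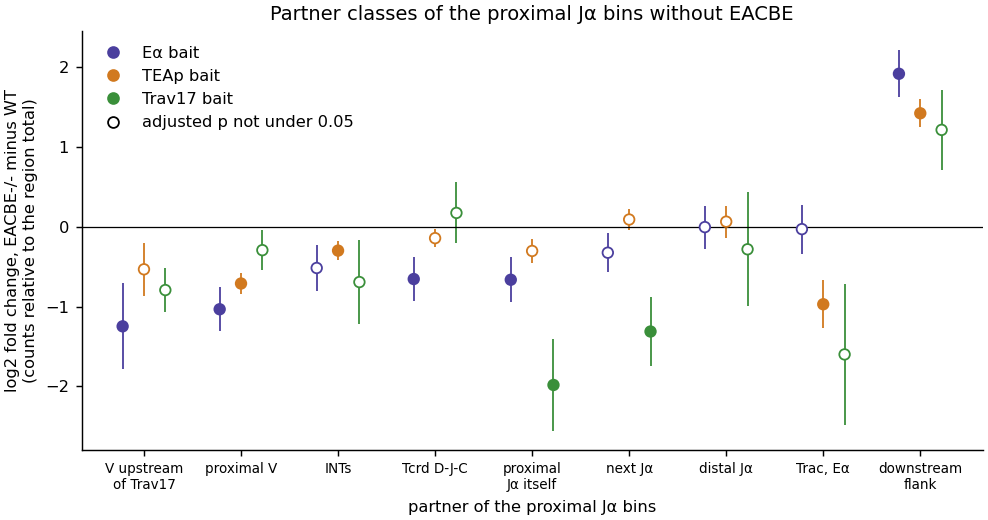
Log2 fold change, EACBE-/- minus WT (y axis, counts relative to the region total), of the proximal Jα bins with each class of partner (x axis) for the Eα, TEAp and *Trav17* baits; points are edgeR estimates, bars the SE, and open points did not reach an adjusted p under 0.05. The downstream flank is above 0 for all 3 baits, filled for Eα and TEAp and open for *Trav17*, and proximal V is filled below 0 for Eα and TEAp.

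Among the V genes named in the design, the bin of *Trav21* (also called *Trav21-dv12*, 53875984 to 53876752) had the clearest counts. From TEAp it held 97, 99 and 127 proximal Jα reads in WT and 31, 35 and 24 in EACBE-/-, or 1.89% ± 0.22 and 0.820% ± 0.12. From Eα it held 46, 34 and 42 against 3, 8 and 8, or 1.9% ± 0.55 and 0.719% ± 0.37. For *Trav18* the counts were 31, 65 and 58 against 8, 13 and 4 from TEAp and 39, 12 and 20 against 1, 0 and 8 from Eα. For *Trdv1* they were 20, 7 and 23 against 0, 0 and 0 from Eα, and 25, 39 and 64 against 22, 9 and 20 from TEAp. The WT percentages did not overlap those of EACBE-/- for *Trav21* and *Trav18* with either bait. For *Trdv2-2* the counts were 86, 61 and 111 against 29, 49 and 26 from TEAp, or 1.46%, 1.28% and 1.68% against 0.640%, 1.2% and 0.997%, with no overlap. From Eα they were 60, 28 and 19 against 30, 3 and 4, or 1.68%, 1.69% and 1.07% against 3.80%, 0.416% and 0.333%, and 1 EACBE-/- library lay above WT with the other two below. *Trav17*, *Trav18*, *Trav23* and *Trdv1* each held a mean under 1% of proximal Jα reads from Eα and TEAp in WT. *Trav23* held 0.610% ± 0.22 in WT and 0.707% ± 0.43 in EACBE-/- from Eα, and 0.812% ± 0.37 and 0.313% ± 0.21 from TEAp. With the *Trav17* bait, means rose for *Trav18* (2.19% to 3.83%), *Trdv2-2* (2.0% to 2.26%) and *Trav23* (0.323% to 1.02%). They fell for *Trav21* (1.92% to 1.54%), *Trdv1* (0.426% to 0.335%) and *Trav17* (1.68% to 0.857%). Libraries of the genotypes overlapped in each of these cases. These genes were not tested one by one.

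In liver the contacts of the proximal Jα bins were few from the Eα and *Trav17* baits, and more were read from TEAp and INT2. From Eα 0 of 124 member bin pairs passed (1.31% of all 1521 did), with 7 at an unadjusted p under 0.05 and 12 called by DESeq2. From *Trav17* 0 of 97 passed (1.23% of all 1874), with 2 at an unadjusted p under 0.05 and 1 by DESeq2. Summed over classes, 7 of 9 pairs were higher in DP from Eα, against 71.1% of all class pairs called. Where liver had no read, a bound was set against a floor of 3 counts over the 2 liver libraries of the bait together. By it the pairs with *Tcrd*, distal Jα, the INTs and *Trac* with Eα were at least 4.39-fold, 4.46-fold, 3.56-fold and 2.35-fold higher in DP. From *Trav17* 4 of 9 were higher in DP, against 57.8% of all class pairs called, and 1 or 2 passed without DP replicate 2 or 3 or either liver replicate. The liver libraries of these 2 baits hold 406 to 1247 region reads, so weaker contacts were not detectable.

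From TEAp 6 of 204 member bin pairs passed between DP and liver (2.39% of all 2678), 1 higher in DP and 5 in liver. The *Traj61–56* bin with the *Trdd2* bin had 96, 106 and 214 reads in DP and none in liver, at least 2.89-fold higher against 3 counts over both liver libraries together (adjusted p = 0.038). The *Traj61–56* bin with the bin from 54035001 had 6, 3 and 13 reads against 4 and 2 and was higher in liver (log2 fold change, DP minus liver, -3.87 ± 1.08, adjusted p = 0.033). The other 4 rested on reads of 1 liver library and overlapped DP. By classes 3 of 9 pairs were higher in DP, against 51.1% called. These were proximal V (1.41 ± 0.48, adjusted p = 0.0098), *Tcrd* (1.08 ± 0.40, adjusted p = 0.019) and V genes upstream of *Trav17*, with no read in liver and at least 3.17-fold higher in DP against the same floor. For the INTs the difference was 0.06 ± 0.33 with an adjusted p = 0.89, and its sign turned with TMM (-0.54) and without liver replicate 2 (-0.26). The INT bin from 54060001 was in 37 of 194 and 5 of 53 proximal Jα reads in liver, a mean of 14.3% against 11.6% in DP, so this contact was read in both. With TMM scaling 0 of the 9 class pairs passed, and without 1 of the DP libraries or liver replicate 1 it was 0 or 1. The bin pairs called numbered 0 without DP replicate 1 or 2 and 11 without liver replicate 2.

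From the INT2 bait 3 of 104 member bin pairs passed (6.64% of all 1506). The TEAp bin with the bin beside the bait bin had 118, 290 and 303 reads in DP and 4 and 2 in liver (3.27 ± 0.56, adjusted p = 3.7e-04). The *Traj61–56* bin with it had 162, 260 and 217 against 15 and 0 (2.10 ± 0.61, adjusted p = 0.039). The *Traj55–53* bin with the INT2 bait bin itself went the other way, with 0.994%, 0.914% and 0.895% of region reads in DP and 1.78% and 1.41% in liver (-0.78 ± 0.21, adjusted p = 0.025). Without DP replicate 2, 0 member bin pairs passed. By classes all 9 pairs passed, against 93.3% of all, with 8 higher in DP and the INTs higher in liver (-0.48 ± 0.12, adjusted p = 0.012). With TMM or DESeq2 scaling 3 of the 9 passed. Proximal V with the proximal Jα bins was 0.189% ± 0.052 of region reads in DP and 0.0050% in liver (4.74 ± 0.73). In liver 96.4% and 96.1% of proximal Jα reads had their other fragment in the INT2 bait bin, against 75.1% ± 1.6 in DP. Such reads join the proximal Jα bins to the bait and sequence close by it, and do not add a separate place.

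**Figure D5:**
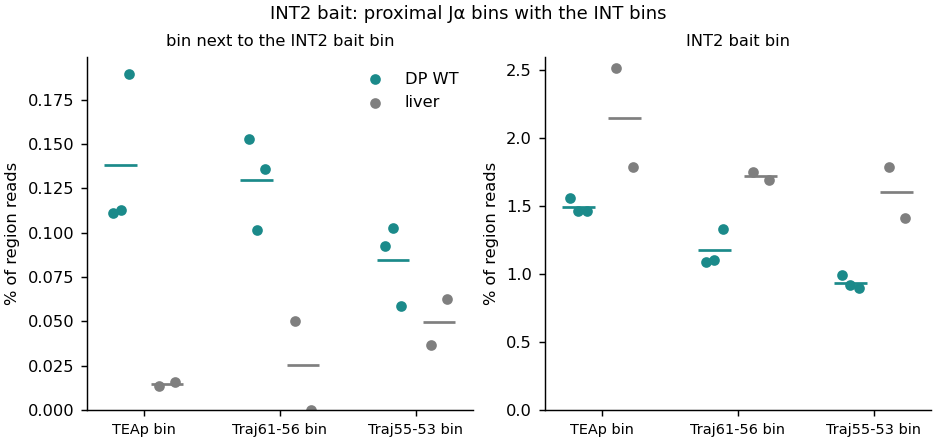
Reads of the INT2 bait with 1 fragment in each proximal Jα bin (x axis) and the other in the bin next to the bait bin (left) or in the bait bin (right), as a percentage of region reads (y axis); points are libraries and bars means. On the left the DP libraries lie above liver for the TEAp and *Traj61–56* bins and overlap it for *Traj55–53*; on the right liver lies above DP for all 3 bins.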

How the data were processed

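The authors trimmed reads with fastp 0.20.0 and cutadapt 1.18, aligned them to mm10 with Bowtie2 2.4.5 and deposited, per library, counts of fragment pairs for each pair of 5 kb bins, and for 22 libraries the aligned fragments of each read (SAMtools 1.9, bedtools 2.29.2 and DESeq2 1.34.0 are also in the submitters' processing notes). The deposited counts hold every read, copies included. The *Trdd2* libraries were binned here from the reads in the same way. Bins follow fragment ends. The authors' scaled matrices were not used. Fragments within a read are sorted by position, so which one was ligated first was not recovered.

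Bin pairs with at least 10 counts over the libraries compared, and sums over 45 class pairs, were fitted per bait with edgeR 4.0.16 (glmQLFit, glmQLFTest; library size the region total; Benjamini-Hochberg over all pairs) in R 4.3.3. Alternatives were TMM, DESeq2 1.42.0, no count filter, distinct pairs, no single-bin pairs, a replicate block and leaving out each library. Scripts were tested on simulated data. Shares were compared with exact permutation tests (scipy 1.17.1). Bait fragments were placed by matching the biotinylated primers to mm10.

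Named bin pairs were those called with the largest change and no overlap, up to 5 per bait and comparison. Named bins were the leading 3 per bait in DP WT. Members, classes and genes were chosen with earlier results of these data known. Replicate numbers did not pair libraries (correlations of same-numbered deviations -0.039 to 0.0413).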

Additional observations from a re-analysis of the deposited data

How the results depend on the processing

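Of the differences between EACBE-/- and WT, those of the proximal Jα bins with proximal V and with the downstream flank (Eα and TEAp baits), and with *Trac* and Eα (TEAp bait), kept direction and call in every setting that could fit them. The share of reads reaching these bins kept its direction except for TEAp in DP against liver, which was -1.90 points without single-bin pairs. For the INTs with the TEAp bait in DP against liver, the log2 difference was -0.54 with TMM, -0.25 with DESeq2, -0.71 without single-bin pairs and ranged from -0.26 (without liver replicate 2) to 1.54 (without liver replicate 1) when a library was left out. Of the results for single pairs, 171 result and setting combinations were no longer called and 353 were unchanged in direction and call.

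Member bin pairs called between EACBE-/- and WT from Eα numbered 1 with TMM, and 0 with no count filter and without pairs downstream of Eα (an alternative chosen after seeing the data). From TEAp they numbered 9 with DESeq2 and 0 without downstream pairs, and from *Trav17* 1 with DESeq2. Between DP and liver they numbered 12 with TMM and 12 with DESeq2 from Eα, 12 and 11 from TEAp, 1 and 1 from *Trav17*, and 6 and 5 from INT2, where leaving out single-bin pairs gave 6. Leaving out 1 library gave 0 to 2 (Eα) and 1 to 3 (TEAp) against WT, and 0 to 1 (Eα), 0 to 11 (TEAp) and 0 to 4 (INT2) against liver.

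Member class pairs called between EACBE-/- and WT from Eα numbered 2 with TMM, 2 with DESeq2, 3 without single-bin pairs and 1 without downstream pairs, and 2 to 5 without 1 library. From *Trav17* they numbered 1 with TMM, 0 without single-bin pairs, 4 with distinct pairs and 0 without downstream pairs, and 0 to 5 without 1 library, and from TEAp 3 to 5. Between DP and liver they numbered 4 from Eα without single-bin pairs, 0 with TMM and 1 with DESeq2 from TEAp, 2 with TMM and 0 without single-bin pairs from *Trav17*, and 3 with TMM and 3 with DESeq2 from INT2. Without 1 library they were 6 to 7, 0 to 5, 1 to 5 and 6 to 9 for Eα, TEAp, *Trav17* and INT2. Against liver, TMM moved the median of all class pairs by -0.41 to -1.57 on the log2 scale, and against WT by 0.16 to 0.19.

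Replicate numbers paired no samples (see the correlations given with the methods). With the replicate block, called bin pairs numbered 1 for Eα against WT, and 0 for TEAp and 0 for INT2 against liver, and called class pairs 2 for Eα against WT and 0 for Eα, TEAp and *Trav17* against liver.

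Proximal V held 25.2% (*Trav17*) and 14.9% (second Eα bait) of proximal Jα fragment pairs when copies were counted once. By TEAp bin and by the other bins it held 2.34% and 4.85% from INT2, 19.8% and 10.0% from *Trdd2*, and 19.7% and 11.4% from the second Eα bait. The 4 shortest fragments held 22.4% (TEAp), 34.5% (Eα), 23.5% (*Trdd2*) and 30.4% (second Eα bait) of distinct hits. The causes were not tested. Depth limits liver from Eα and *Trav17*, with 406 to 1247 region reads a library.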
